A study of Arabidopsis thaliana with 12 samples.

Results

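M17 (AT2G41260), M10 (AT2G41280), AT3G22490, LTI30 (AT3G50970) and DI21 (AT4G15910) are 5 Arabidopsis genes of late embryogenesis abundant (LEA) proteins, the proteins that accumulate as seeds dry. They were chosen by their measured change on drying in earlier results of these data, and those values are given below as a description, with no test. Each is read by the 1 probe set that the platform annotation ties to it alone, which makes them 5 of 13333 genes measured in this way and 5 of 22746 probe sets on the array. Transcripts were measured on 12 Affymetrix ATH1 arrays of seed RNA from the WS accession of Arabidopsis. Seeds of the genotypes WT and KD were dissected at 14DAF and 16DAF (days after flowering) or collected dry after desiccation, with 2 arrays for each of the 6 groups. All plants grew in a greenhouse under long days without treatment, and each extraction pooled a large number of seeds. The abbreviation KD is not explained by the labels. The series concerns altered metabolism of lysine, and the work of Zhu and Galili that it cites combined the loss of LKR/SDH, which starts lysine breakdown, with a bacterial enzyme of lysine synthesis expressed in seeds. Which of these the KD seeds carried, and whether from 1 line, is not stated in the sources used here. Array 1 and array 2 of a group follow the number in the sample title. Nothing says that they came from separate plants or harvests, so a p-value here covers the spread between these arrays, which may be technical.

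LEA proteins are mostly hydrophilic and little folded in water, and are thought to protect membranes and other proteins when cells lose water. Their genes fall into several families, are switched on in seeds during maturation under abscisic acid and the regulators of the ABI3 and bZIP type, and some respond to drought or cold in leaves and roots as well. M17 and M10 form the small AtM family. AT3G22490 belongs to the family of seed maturation proteins (SMP). LTI30 is a dehydrin, a LEA protein with lysine-rich repeats that binds membranes, and was named after its induction by low temperature. DI21 belongs to the LEA_3 family and was named after its induction by drought. In the gene order of the TAIR10.1 assembly, M17 and M10 are neighbours, with 0 other coding genes between them. The next coding gene after AT3G22490 is ATECP31, another gene of the SMP list, and the next after LTI30 is XERO1, another dehydrin gene. Neither of these has a probe set naming it alone.

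Signal is given on the log2 scale, so a step of 1 is a doubling. The medians of the arrays lay between 4.91 and 5.28 and the lower quartiles between 3.67 and 3.78. No detection calls were used, so a fold against a value near these levels is uncertain in size. Array pairs of a group correlated at r = 0.983 to 0.993 across probe sets. LKR/SDH (AT4G33150) read 8.87 to 10.61 in WT arrays and 12.8 to 13.88 in KD arrays. WT 16DAF array 1 and KD dry array 1 carry a source name of the other genotype and lay with the genotype of their titles in this gene, at 9.8 and 12.83. Where this probe set lies relative to an insertion is not known here, so its higher signal in KD checks no knockout. Of the embryo and storage markers 2 of 12 were measured, the cupin gene AT1G03890 and the oleosin gene OLEO3, and their summed signal was bright in every array, at a log2 of 12.2 to 14.8. The 1 measured marker of 6 for silique wall and funiculus, ALC, read 3.39 to 4.26. No endosperm marker was measured (0 of 6).

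By group means M17 had the strongest rise on drying of all 22746 probe sets in both genotypes. The gene was chosen with that step known, so nothing is read from its rank. In WT it read 2.9 and 4.46 at 14DAF, 3.98 and 6.11 at 16DAF, and 12.94 and 14.03 in dry seeds. In KD it read 6.55 and 4.0 at 14DAF, 4.14 and 7.43 at 16DAF, and 12.91 and 13.96 in dry seeds. The 4 dry arrays stood above all 8 developing arrays, which scattered between values below the lower quartile of an array and values above its median. The WT mean went from 5.05 ± 1.51 at 16DAF to 13.49 ± 0.77 in dry seeds (SD, n = 2), and the KD mean from 5.79 ± 2.33 to 13.44 ± 0.74. The differences were 8.44 (SE 1.15) in WT, or 347-fold, and 7.65 (SE 1.15) in KD, or 201-fold. With either 16DAF array left out they were 7.38 and 9.51 in WT, and 6.01 and 9.29 in KD. From 14DAF to 16DAF the difference was 1.36 in WT and 0.51 in KD. With 1 array left out it ranged from 0.30 (without WT 16DAF array 2) to 2.43 (without WT 16DAF array 1) in WT. In KD it ranged from -1.14 (without KD 16DAF array 2) to 2.16 (without KD 16DAF array 1), with -0.77 without KD 14DAF array 2. The size of M17's change before drying was therefore not resolved, and in KD neither was its direction.

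M10, the neighbour of M17, read higher at 16DAF than at 14DAF in every array. It read 4.7 and 5.11 at 14DAF, 7.25 and 10.46 at 16DAF, and 13.93 and 14.29 in dry seeds of WT. In KD it read 6.43 and 5.3, then 7.29 and 10.56, and then 13.97 and 14.37. The 3 stages did not overlap in either genotype, and the 16DAF arrays of a genotype lay more than 3 log2 units apart. The step from 14DAF to 16DAF was 3.95 (SE 1.06) in WT and 3.06 (SE 1.06) in KD. It depended on the 16DAF arrays, with 5.56 in WT and 4.70 in KD without array 1 of that stage, and 2.35 and 1.43 without array 2. The step to the dry seed was 5.25 (SE 1.06) in WT and 5.25 (SE 1.06) in KD, and moved the other way with the same arrays: without array 1 it was 3.65 in WT and 3.61 in KD, and without array 2 it was 6.86 and 6.88.

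**Figure D1:**
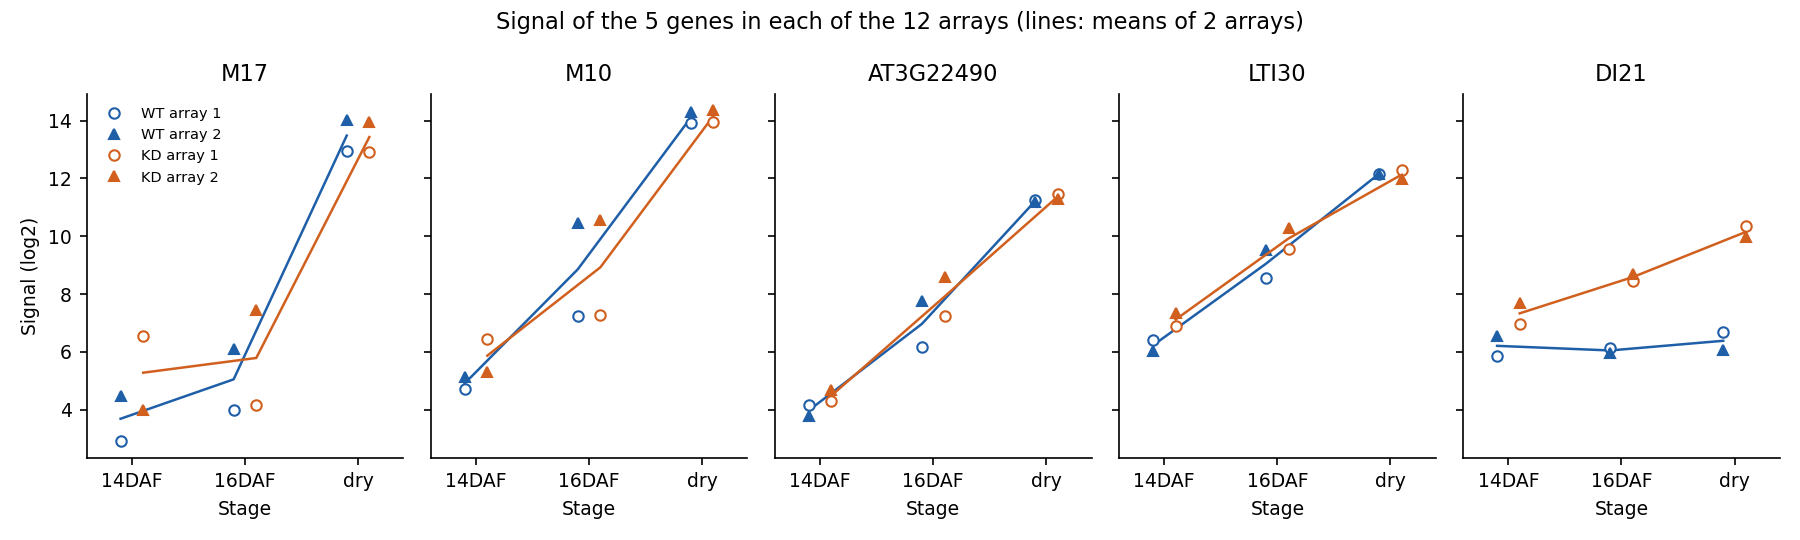
Signal (log2) of M17, M10, AT3G22490, LTI30 and DI21 by stage, in WT (blue) and KD (orange), with open circles for array 1, filled triangles for array 2 and lines through the means of 2 arrays. M17 scatters between 2.9 and 7.43 before drying and lies above 12.9 in dry seeds, M10, AT3G22490 and LTI30 climb in both steps, and DI21 climbs in KD while its WT arrays stay between 5.85 and 6.7.

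AT3G22490, the SMP gene, climbed in both steps. In WT it read 4.15 and 3.79 at 14DAF, 6.18 and 7.75 at 16DAF, and 11.25 and 11.17 in dry seeds. In KD it read 4.3 and 4.67, then 7.24 and 8.58, and then 11.46 and 11.28. The 14DAF values lay close to the lower quartiles of their arrays, and the 3 stages did not overlap in either genotype. The steps were 2.99 and 4.25 in WT and 3.43 and 3.46 in KD (SE 0.487 for each).

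The dehydrin gene LTI30 read 6.4 and 6.04 at 14DAF, 8.56 and 9.54 at 16DAF, and 12.17 and 12.16 in dry seeds of WT. In KD it read 6.9 and 7.33, then 9.56 and 10.29, and then 12.29 and 11.98. The stages did not overlap, and the dry arrays of both genotypes lay within 0.31 of each other. The steps were 2.83 and 3.12 in WT and 2.81 and 2.21 in KD (SE 0.325 for each).

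Markers of green and coat tissue fell over the first step. PRK, an enzyme of the Calvin cycle and the 1 measured leaf marker of 4, fell by 3.96 in WT and fell by 1.90 in KD, and 3 of the 5 measured seed coat markers fell in both genotypes by limma, among them DELTA-VPE, which fell by 4.04 in WT and fell by 2.27 in KD. The summed seed coat signal had a log2 of 10.9 to 11.4 at 14DAF and 9.47 to 9.91 at 16DAF in WT, and of 10.4 to 11.2 and 9.21 to 9.37 in KD. The part of these tissues in the rises from 14DAF to 16DAF was not tested.

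The whole rise from 14DAF to the dry seed was 9.81 in WT and 8.16 in KD for M17, 9.21 and 8.31 for M10, 7.24 and 6.89 for AT3G22490, and 5.95 and 5.02 for LTI30. The share of that rise, in log2 units, that fell between 16DAF and the dry seed was 86.1% in WT and 93.8% in KD for M17. It was 57.1% and 63.2% for M10, 58.6% and 50.3% for AT3G22490, and 52.4% and 44% for LTI30. Several of M17's readings before drying lay near the lower quartiles of their arrays, where a change may not show, so its share does not date the rise. The summed signal of the 2 embryo and storage markers moved the other way, from a log2 of 14.4 to 14.6 at 16DAF to 12.2 to 12.8 in dry seeds, and the 3' minus 5' difference of the control pairs was 3.39 to 4.25 at 16DAF and 3.26 to 3.47 in dry seeds; their part in these rises was not tested. Since both steps share the 16DAF arrays, a higher 16DAF value makes one step larger and the other smaller.

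DI21 did not follow the pattern of drying in WT. Its WT arrays read 5.85 and 6.56 at 14DAF, 6.12 and 5.97 at 16DAF, and 6.7 and 6.06 in dry seeds, so the 3 stages overlapped. In KD it read 6.97 and 7.69 at 14DAF, 8.46 and 8.71 at 16DAF, and 10.34 and 9.96 in dry seeds, with no overlap between stages. Every KD array stood above every WT array, the nearest being 6.97 in KD against 6.7 in WT. The share of all probe sets with such a separation was not counted. DI21 may have been chosen for its dry KD arrays, so nothing is read from the separation. The change on drying was 0.34 (SE 0.306) in WT and 1.56 (SE 0.306) in KD, and the change from 14DAF to 16DAF was -0.16 and 1.25. The name of a drying gene therefore fits DI21 only for the KD seeds of this series. The difference between the genotypes in the drying step was not tested, since that step was used to choose the genes.

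Counted over both genotypes, the later stage stood clear above the earlier one in most cases. From 14DAF to 16DAF this held for 3 of the 5 genes in WT (30.4% of all probe sets) and 4 in KD (26.5%), and from 16DAF to the dry seed for 4 in WT (35%) and 5 in KD (36.2%). The drying step was used to choose the genes, so nothing is read from these counts.

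Ordered by mean level, M17 ran from WT 14DAF through WT 16DAF, KD 14DAF and KD 16DAF to KD dry and WT dry, and the only neighbours in that order whose arrays did not overlap were KD 16DAF and KD dry. M10 and AT3G22490 shared 1 order, from WT 14DAF through KD 14DAF, WT 16DAF, KD 16DAF and WT dry to KD dry. For M10 the 16DAF groups overlapped with each other, as did the dry groups; for AT3G22490 only the 16DAF groups did. LTI30 had the same order up to KD 16DAF, and then only the dry groups overlapped. DI21 ran from WT 16DAF, WT 14DAF and WT dry, which overlapped, to KD 14DAF, KD 16DAF and KD dry, each clear of the group before it.

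At 16DAF the arrays of a group lay far apart in all of these genes except DI21, in the same direction in both genotypes, a pattern noticed in these data. Array 2 exceeded array 1 by 2.13 in WT and 3.29 in KD for M17, by 3.21 and 3.27 for M10, by 1.57 and 1.34 for AT3G22490, and by 0.98 and 0.73 for LTI30. DI21 showed -0.15 and 0.25. Array 2 was the higher in both genotypes for 4 of the 5 genes, for 13 of the 27 other measured LEA genes and for 34.2% of all probe sets. A gap of at least 0.5 in both genotypes was found for 4 of the 5 genes and for 2.4% of all probe sets. Of the 27 other measured LEA genes, 2 had such a gap, AT4G36600 (1.51 and 0.94) and LEA4-5 (1.09 and 0.52). The median gap over all probe sets was 0.02 in both genotypes. In the dry seed, M17 again read higher on array 2, by 1.09 in WT and 1.05 in KD, while at 14DAF array 2 was higher by 1.56 in WT and lower in KD, with a gap of -2.55. The 3' minus 5' signal of 3 pairs of control probe sets, which reflects how intact the RNA was and how it was labelled, was also higher on array 2 at 16DAF, with 4.25 on array 2 and 3.55 on array 1 of WT, and 3.74 and 3.39 in KD. The part of RNA quality in these gaps was not tested. The labels give no harvest or scan batch for the arrays.

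**Figure D2:**
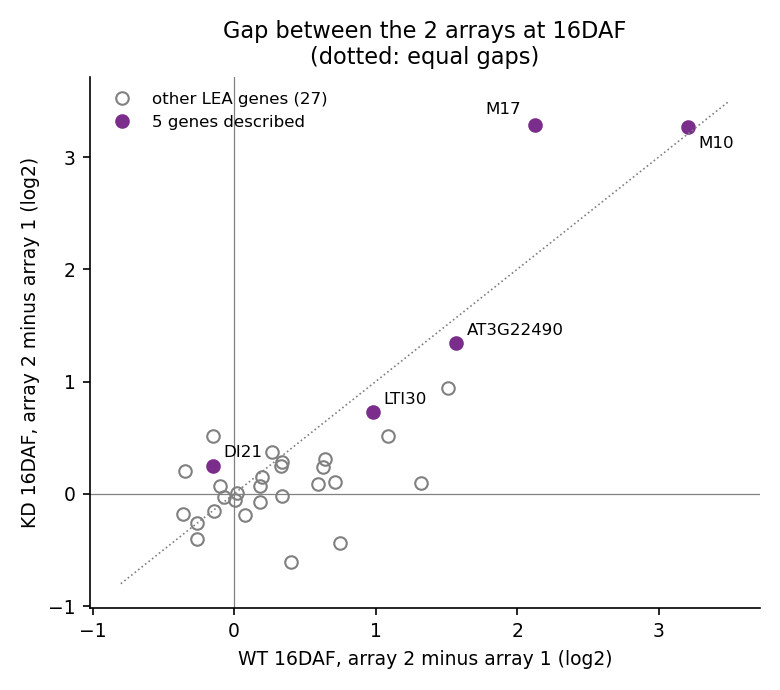
Difference between array 2 and array 1 (log2) at 16DAF in WT (horizontal) and KD (vertical) for 32 measured LEA genes, with the 5 genes filled and the 27 others open; the dotted line marks equal gaps. M17 and M10 lie far out at 2.13 and 3.29 and at 3.21 and 3.27, followed by AT3G22490 and LTI30, while DI21 lies with the bulk near 0.

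The genotypes were then compared at each stage, a contrast other than the drying step, though its 16DAF and dry arrays also entered the choice of genes. At 16DAF, DI21 was 5.82-fold higher in KD, at 8.59 ± 0.18 against 6.05 ± 0.11 (SD, n = 2; log2 difference 2.54, SE 0.306, limma adjusted p = 0.000931). Both KD arrays stood above both WT arrays, and the difference measured 2.62 without the 2 arrays of conflicting source names (limma adjusted p = 0.00854, range 0.000387 to 0.0173 over 19 alternatives). At 14DAF its difference of 1.12 (SE 0.306, 95% interval 0.44 to 1.81) did not pass over all probe sets (limma adjusted p = 0.0545), with 7.33 ± 0.51 in KD and 6.21 ± 0.50 in WT. That p was 0.0438 without KD 14DAF array 1, 0.349 without KD 14DAF array 2, the highest of 19 alternatives, and 0.0337 after quantile normalization, the lowest. In dry seeds DI21 read 10.15 ± 0.27 in KD and 6.38 ± 0.45 in WT (SD, n = 2), a difference of 3.77, or 13.6-fold. It may have been chosen for its level in dry KD seeds, so that difference is given without a test.

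The genes of the other families did not differ detectably between the genotypes in dry seeds. The difference was -0.05 for M17 (95% interval -2.6 to 2.5), 0.06 for M10 (-2.30 to 2.42), 0.16 for AT3G22490 (-0.92 to 1.24) and -0.03 for LTI30 (-0.75 to 0.69). None of these 4 passed limma's test (0 of 4, also 0 of 4 at an unadjusted p under 0.05), against 7.91% of all probe sets. The intervals of M17 and M10 are wide, and the model carries into them the spread of their 16DAF and 14DAF arrays. The dry arrays of M17 also lay apart, by 1.09 in WT and 1.05 in KD. These were levels in RNA of whole seeds, in which fewer cells of a type and less RNA per cell cannot be told apart.

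At 14DAF and 16DAF the differences of these 4 genes were positive and did not pass. LTI30 differed by 0.89 at 14DAF (95% interval 0.17 to 1.62, limma adjusted p = 0.136) and by 0.88 at 16DAF (0.15 to 1.60, adjusted p = 0.122). AT3G22490 differed by 0.52 (-0.57 to 1.60) and 0.94 (-0.14 to 2.03), M10 by 0.96 (-1.40 to 3.32) and 0.07 (-2.29 to 2.43), and M17 by 1.59 (-0.96 to 4.15) and 0.74 (-1.82 to 3.30). The differences at 16DAF depended on the WT array left out. Without WT 16DAF array 2 AT3G22490 differed by 1.73 and LTI30 by 1.36, and without WT 16DAF array 1 by 0.16 and 0.38. Array 2 was the higher at 16DAF in both genotypes, by 1.57 in WT and 1.34 in KD for AT3G22490. For LTI30 it was higher by 0.98 and 0.73. Leaving out 1 WT array therefore set a low or a high WT array against the mean of both KD arrays. Averaged over the stages, LTI30 differed by 0.58 (SE 0.188, limma adjusted p = 0.0541), and 0 of these 4 genes passed (1 at an unadjusted p under 0.05), against 20.2% of all probe sets. Both KD arrays stood above both WT arrays in 4 of the 5 genes at 14DAF (24.9% of all probe sets). At 16DAF this held for 2 (21.5%), namely LTI30 and DI21. In dry seeds it held for 1 of the 4 genes other than DI21, AT3G22490 (23.7%). DI21 is left out there, since it may have been chosen for its level in dry KD seeds. Of the 5 genes, 0 passed at 14DAF by limma (2 at an unadjusted p under 0.05) against 7.27% of all probe sets, and 1 passed at 16DAF against 11.1%. Some markers of other tissues differed between the genotypes at 16DAF as well. Of the 5 measured seed coat markers of 14, 1 was higher in KD (DELTA-VPE, 1.86, limma adjusted p = 0.0267) and 1 lower (ARA12, -1.04, adjusted p = 0.016), and their summed signal had a log2 of 9.47 to 9.91 in WT and 9.21 to 9.37 in KD. The silique marker ALC was lower in KD (-0.43, adjusted p = 0.036), near the lower quartiles of the arrays. The leaf marker PRK passed at neither stage, with -1.49 at 14DAF (limma adjusted p = 0.078) and 0.56 at 16DAF (adjusted p = 0.514). The part of these tissues in the differences was not tested.

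**Figure D3:**
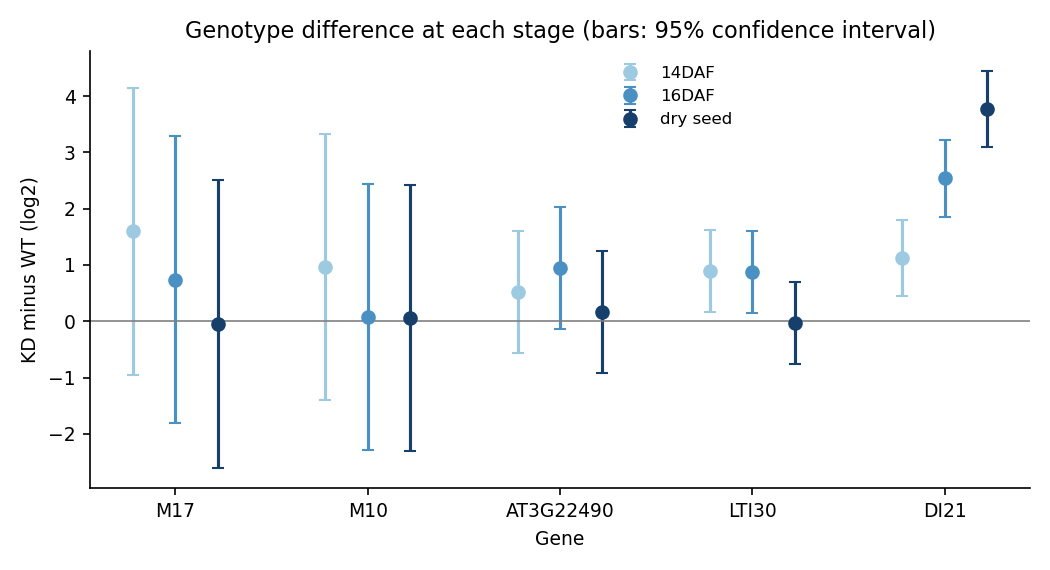
KD minus WT difference (log2) of each gene at 14DAF, 16DAF and in dry seeds, with 95% confidence intervals of the linear model over 12 arrays. The interval of DI21 in dry seeds is drawn as a description and not as a test, since the gene may have been chosen for that value. The difference of DI21 goes from 1.12 to 2.54 and 3.77, and the intervals of M17, M10 and AT3G22490 include 0 at every stage.

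Whether the step from 14DAF to 16DAF differed between the genotypes was tested as an interaction, and 0 of the 5 genes passed limma's test, with 1 at an unadjusted p under 0.05 and 0.356% of all probe sets called. That gene was DI21, with an interaction of 1.42 (SE 0.433, limma adjusted p = 0.183, range 0.0778 to 0.523 over the alternatives). The interaction was -0.85 for M17 (95% interval -4.47 to 2.76), -0.89 for M10 (-4.23 to 2.45), 0.43 for AT3G22490 (-1.10 to 1.96) and -0.02 for LTI30 (-1.04 to 1).

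Over the same steps the other measured LEA genes moved in both directions. Of 27 in WT, 11 rose and 4 fell from 16DAF to the dry seed by limma, with a median of 0.30; over all probe sets 20.4% rose and 16.9% fell, with a median of 0.02. In KD, 13 rose and 3 fell, with a median of 0.47; over all probe sets the shares were 19.6% and 15.3% and the median 0.03. From 14DAF to 16DAF, 14 rose and 2 fell in WT (9.2% and 10.3% of all probe sets), and 6 rose and 2 fell in KD (4.63% and 4.86%).

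Of the 10 listed dehydrin genes 6 were measured, and of these LTI30 alone rose by more than 1 on drying in both genotypes. LTI30 was chosen with that step known, so nothing is read from its standing in the family. The dehydrin gene AT2G21490, named LEA in the gene table, rose by 0.78 in WT and 0.84 in KD, from a level that was already high at 14DAF (12.47 to 12.69). AT1G54410 fell by 2.15 in WT and fell by 2.73 in KD. The cold-regulated dehydrin gene COR47 fell by 2.01 in WT (limma adjusted p = 6.39e-05), and measured -0.55 in KD (adjusted p = 0.094), where it was lower than in WT already at 16DAF (-1.25, adjusted p = 0.00689). AT4G39130 rose by 3.02 from 14DAF to 16DAF in WT and by 1.91 in KD, and then fell by 0.80 in WT while measuring -0.31 in KD. AT4G38410 passed limma's test on drying in KD (0.96, adjusted p = 0.0217), with KD dry array 1 at 5, and its other arrays in both genotypes lay between 3.41 and 4.05. The SMP gene AT5G27980 stayed between 3.47 and 4.19 and the LEA_3 gene AT3G53770 between 3.17 and 3.55, near the lower quartiles of the arrays.

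**Figure D4:**
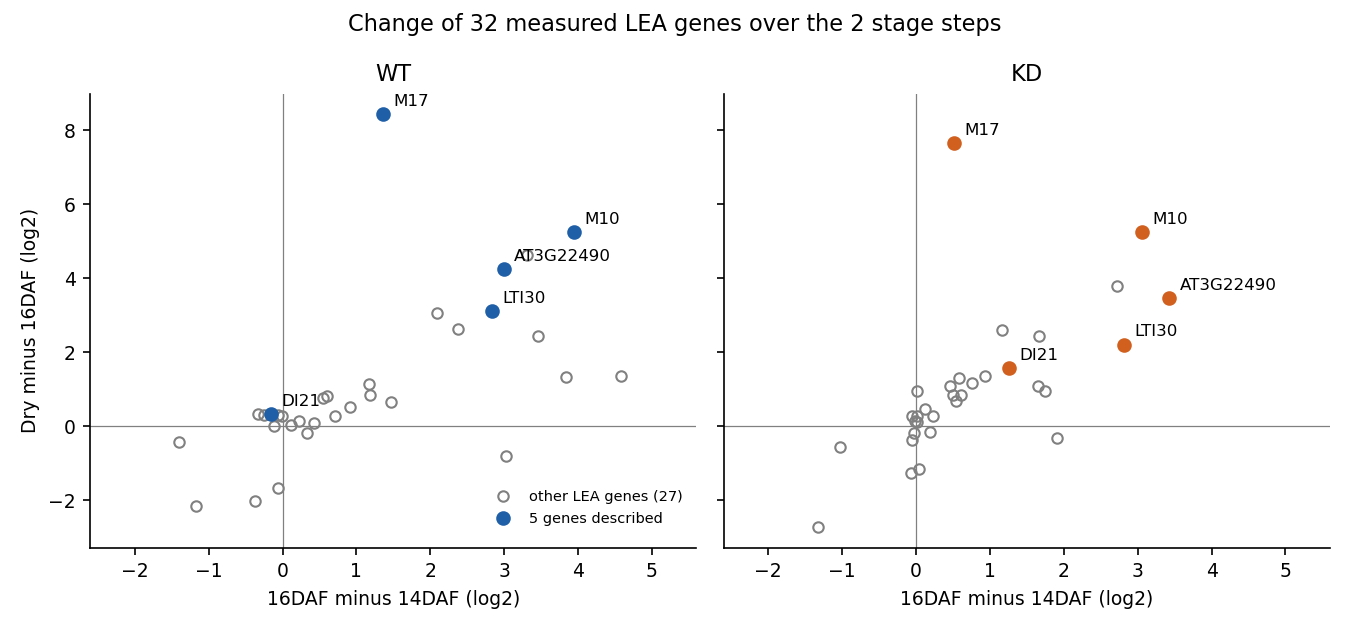
Change from 14DAF to 16DAF (horizontal) and from 16DAF to the dry seed (vertical), both log2, of 32 measured LEA genes in WT and KD, with the 5 genes filled. M17 stands alone at the top with 8.44 in WT and 7.65 in KD, M10, AT3G22490 and LTI30 rise in both steps, and DI21 sits near 0 in WT and among the rising genes in KD.

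Among the families not represented by the 5 genes, AT4G36600 of the LEA_4 family had the largest mean rise on drying, of 4.62 in WT and 3.79 in KD (SE 0.436). AT2G18340 rose by 3.07 and 2.45, LEA18 by 2.64 and 2.6, LEA4-5 by 2.45 and 1.09 and AT2G42560 by 1.33 and 1.36. AT3G02480 fell by 1.67 in WT and fell by 1.15 in KD. LEA4-5, of a family that accumulates under water deficit, was also higher in KD at 14DAF (3.01, limma adjusted p = 0.000763) and at 16DAF (1.2, adjusted p = 0.0301), as were AT2G42560 (3.06, adjusted p = 0.000763) and AT2G18340 (0.95, adjusted p = 0.043) at 14DAF. The fourth gene called at 14DAF, AT3G53040, had the largest difference of them (3.54, limma adjusted p = 0.000348) and is named here after its values were seen. Of the 27 genes, 4 were higher and 0 lower in KD at 14DAF (11 at an unadjusted p under 0.05 in either direction), against 3.35% and 3.92% of all probe sets. At 16DAF 2 were higher and 1 lower, against 5.22% and 5.88%. In dry seeds 0 passed (4 at an unadjusted p under 0.05), against 7.91% of all probe sets in either direction. Of 33 seed and abscisic acid regulators 2 were measured, both bZIP genes, and both fell on drying: EEL fell by 2.17 in WT and fell by 1.67 in KD, and BZIP53 fell by 1.29 and fell by 1.65.

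Over the 12 arrays M17, M10, AT3G22490 and LTI30 correlated with each other at r = 0.878 (M17 with LTI30) to 0.995 (AT3G22490 with LTI30). DI21 correlated with them at 0.412 to 0.473. The arrays share stage and genotype, so these values describe the shape of the profiles only. Among named probe sets with an SD of at least 0.5, those most like M17 were AT5G21020 (r = 0.991), AT1G68570 (0.989) and AT1G10140 (0.985). M10 was most like AT1G71350 (0.994), AT5G09390 (0.991) and LCR67 (0.99), a gene of a small cysteine-rich protein. LCR67 had the wide gap of M10 at 16DAF as well, at 6 and 10.81 in WT and 6.09 and 10.24 in KD. AT3G22490 was most like AT1G74370 and LTI30 (0.995 for both) and AT4G36600 (0.994). LTI30 was most like AT5G50170 and AT3G22490 (0.995 for both) and AT2G29300 (0.994). The highest mean r to the 5 genes was that of AT4G38540 (0.886), followed by AT2G39670, AT4G17420, ATSIK and AT4G37210 (0.881 to 0.882).

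DI21 was most like AT5G18470 (r = 0.97), AT5G19120 (0.962) and AT3G11830 (0.958). AT5G18470 stayed at means of 3.8, 3.63 and 3.77 in WT from 14DAF to the dry seed, near the lower quartiles of the arrays, and rose from 4.22 to 6.30 and 7.88 in KD. AT5G19120 stayed between 4.62 and 5.32 in WT and went from a mean of 6.37 to 7.33 and 7.96 in KD. AT3G11830 went from 9.12 to 9.62 and 10.08 in KD, with WT arrays between 8.46 and 9.22. By group means, KD lay further above WT in dry seeds than at 14DAF in all of them. AT3G11830 hardly drew apart after 16DAF, since its WT mean rose as well, from 8.545 to 8.98. They were picked for their likeness to DI21, so nothing is read from the shared pattern.

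**Figure D5:**
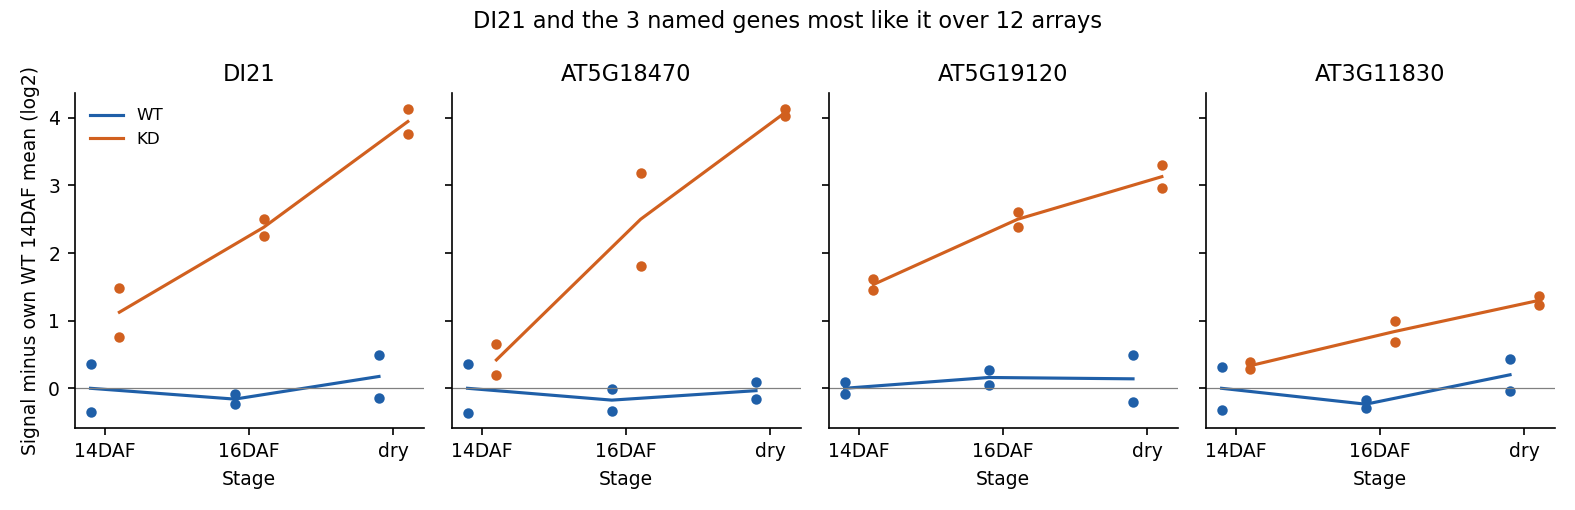
Signal of DI21 and of AT5G18470, AT5G19120 and AT3G11830, each minus its own WT 14DAF mean (log2), by stage in WT (blue) and KD (orange), with points for arrays and lines through the means of 2 arrays. The KD lines climb from stage to stage, to 3.77 above WT in dry seeds for DI21, while the WT lines stay near 0.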

How the data were processed

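The deposited log2 values came from RMA, per the submitters' processing notes, which also name Partek; that the scale is log2 was inferred from the range of the values. Tool versions: not given in the sources used here, and the same holds for whether RMA was run on all arrays at once. RMA aligns the arrays, so a shift of all transcripts would not be seen. RNA was amplified with the 2-cycle protocol, per the labels. Groups came from the titles, and from the description for WT dry array 1. With 2 arrays a group, their number limits the precision. All per-sample columns were used.

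Of 22810 probe sets, 64 controls were removed. The platform annotation named 1 gene for 13513 and several for 503, and the other 8730 were listed without a gene or not listed. Of the 13513, 13484 were matched to loci of the TAIR10.1 gene table, which gave the symbols. A gene was counted as measured only where a probe set named it alone, so the array may still read genes counted as not measured. The model of 6 group means was fitted to the 12 arrays with limma (version 3.58.1, R version 4.3.3). Variances were moderated by eBayes with no trend, on 6 residual and 4.16 prior degrees of freedom. Tests were two-sided, with Benjamini-Hochberg adjustment over all 22746 probe sets and a threshold of 0.05. The method was tested on simulated data for the contrast at 14DAF alone, with independent noise of equal spread in all groups. That simulation did not cover the gap between the arrays at 16DAF. Python 3.11.15 drew the plots.

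The genes and lists were chosen with earlier results of these data known. The LEA list held 48 loci, of which 32 were measured. Named besides the 5 genes were LKR/SDH, markers of other tissues that moved, all measured LEA genes of their families, 6 others with the largest mean change on drying, the measured regulators, the 3 probe sets most like each gene and the 5 most like all. The alternatives changed the normalization, the filter on dim probe sets, the block, the variance model and the arrays used.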

Additional observations from a re-analysis of the deposited data

How the results depend on the processing

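The limits are the 2 arrays per group, the missing detection calls for dim values and the unknown origin of the replicates. The call of DI21 at 16DAF held under all 19 alternatives (adjusted p 0.000387 to 0.0173). Some differences of M17, M10, AT3G22490 and LTI30, none past the threshold, changed sign under some settings, and the cause was not tested. With the arrays centred LTI30 differed by 0.005 in dry seeds, and after quantile normalization M17 differed by 0.0527 there. Without the arrays of conflicting source names M17 differed by -0.33 and M10 by -1.53 at 16DAF. These 16DAF values were the same with WT 16DAF replicate 1 alone left out. Without the arrays of conflicting source names M17 also differed by 0.47 in dry seeds and M10 by -0.10 on average. The interaction of AT3G22490 was then -0.35. The ranges over single arrays left out were -0.91 to 2.38 for M17 and -1.56 to 1.71 for M10 at 16DAF. In dry seeds they were -0.59 to 0.49 for M17, -0.14 to 0.26 for M10 and -0.18 to 0.12 for LTI30, and on average -0.18 to 0.91 for M10. For the interaction they were -2.50 to 0.79 for M17, -2.52 to 0.75 for M10, -0.35 to 1.22 for AT3G22490 and -0.51 to 0.47 for LTI30.

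Of the 5 genes 1 (DI21) passed at 14DAF with centred arrays, quantile normalization, the filter on dim probe sets or the variance trend, and 0 to 1 with single arrays left out (1 without KD 14DAF replicate 1). At 16DAF this was 1 to 3 (3 without WT 16DAF replicate 2). On average over the stages 1 of 4 (LTI30) passed under the same 4 settings, and 0 to 2 with single arrays left out: 2 without WT 16DAF replicate 2 and 1 without KD 16DAF replicate 1. Over all probe sets 1654 were called at 14DAF (936 from the arrays compared alone; 441 to 2111 with single arrays left out, the array left out being WT replicate 2 for 473, KD replicate 1 for 1007 and KD replicate 2 for 441). At 16DAF 2525 were called (869 from the arrays compared alone; 1019 to 2467, with 1514 and 1019 without KD 16DAF replicates 1 and 2). In dry seeds 1800 were called (2534 from the arrays compared alone; 612 to 2255, with 926 and 676 without WT dry replicates 1 and 2 and 873 and 612 without KD dry replicates 1 and 2). The interaction called 81 (22 with the replicate block, 53 with the variance trend, 1 from its arrays alone, 3 to 458 with single arrays left out: 458 and 205 without WT 14DAF or WT 16DAF replicate 1, and 3 to 20 without any one of the other 10 arrays). The contrast averaged over stages called 4590 (3567 to 4822).

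The replicate numbers were not taken as pairs: the difference between array 2 and array 1 correlated across probe sets between WT and KD with r = -0.212 (14DAF), 0.417 (16DAF) and 0.17 (dry). With the replicate number as a block the 3 stages called 1171, 2130 and 1436, DI21 at 16DAF had an adjusted p of 0.00205, and no other of the 5 genes passed in those stages or in the interaction. The block was a single offset shared by all 6 groups, so it could not take up a gap between arrays seen only at 16DAF. Such a gap stayed in the spread of the model.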
